A study of Mus musculus with 6 samples.

Results

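Basophils and mast cells are granulated cells that carry the high affinity receptor for IgE. In endothelial cells sorted from mouse bone marrow, 9 basophil and mast cell genes were followed: Mcpt8, Prss34, Cpa3, Gzmb, Fcer1a, Ms4a2, Cd200r3, Hdc and Il4. The members were chosen by name, and each was measured on microarrays by the brightest probe set (a group of array probes for a transcript) that names that gene alone. All 9 were found, of 22180 genes with such a probe set. The animals were male C57BL/6J mice in 2 groups, a diabetic group of 3 arrays, in which a high fat diet had brought on type 2 diabetes, and a nondiabetic control group of 3 arrays. A single diet text stands in the labels of both groups, 60 kcal% fat for 4 months, so what the controls ate is not settled here, and no age is given. Every sample held 5000 sorted cells, and the labels name no surface markers for the sort. Nothing in the labels tells whether a mouse gave only a single sample, so the p-values speak of the spread over these arrays, part of which may be technical.

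A basophil matures in the marrow from a myeloid progenitor and is released into the blood, whereas a mast cell completes its development in tissues. Both bind IgE through a receptor whose alpha chain Fcer1a encodes and whose beta chain Ms4a2 encodes. When antigen links those receptors, stored histamine and proteases are released and the cytokine interleukin 4 is made. Mcpt8 is a serine protease that marks mouse basophils, and the tryptase-type protease Prss34 and the surface receptor Cd200r3 are used as basophil markers as well. Cells of this lineage are no part of the endothelium, so the question here was how much signal these genes gave in the sorts and whether it differed with diabetes. In RNA from pooled cells, fewer cells of a type and less RNA per cell cannot be told apart.

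The start regions of the members are shown first for 4 genes, because the same short motif lies just before their start sites. Windows from 250 bases before to 50 bases after the start were taken from RefSeq, build GRCm38.p6, and all 9 members matched by gene ID, Il4 with 2 windows. The GATA motif was searched on both strands in 4 forms, namely AGATAA and its variant AGATAG, together with the form TGATAA and its variant TGATAG. Capitals mark every match, and TTATCT is the opposite-strand reading of the first form, as TTATCA is of the third form. The windows are chr19:11623670-11623969 on the minus strand for Ms4a2, chr16:44943428-44943727 on the plus strand for Cd200r3, chr3:20242132-20242431 on the minus strand for Cpa3 and chr17:25298144-25298443 on the plus strand for Prss34, each printed 5′ to 3′ along the gene.
Ms4a2: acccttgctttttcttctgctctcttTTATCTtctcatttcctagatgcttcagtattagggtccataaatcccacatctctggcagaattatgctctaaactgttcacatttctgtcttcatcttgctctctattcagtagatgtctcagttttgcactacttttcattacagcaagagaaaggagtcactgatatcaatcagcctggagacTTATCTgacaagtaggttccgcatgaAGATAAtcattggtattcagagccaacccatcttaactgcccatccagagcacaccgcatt
Cd200r3: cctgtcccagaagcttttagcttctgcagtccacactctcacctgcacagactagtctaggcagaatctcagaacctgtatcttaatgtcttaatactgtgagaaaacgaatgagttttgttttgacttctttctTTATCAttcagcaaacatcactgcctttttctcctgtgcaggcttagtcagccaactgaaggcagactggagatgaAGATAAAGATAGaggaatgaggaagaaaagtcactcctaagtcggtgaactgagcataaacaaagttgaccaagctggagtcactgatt
Cpa3: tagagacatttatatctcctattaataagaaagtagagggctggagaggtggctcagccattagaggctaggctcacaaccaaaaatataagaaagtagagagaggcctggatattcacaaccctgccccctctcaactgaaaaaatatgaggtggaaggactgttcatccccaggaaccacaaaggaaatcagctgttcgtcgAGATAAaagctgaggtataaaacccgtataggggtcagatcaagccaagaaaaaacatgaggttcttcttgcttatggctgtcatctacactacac
Prss34: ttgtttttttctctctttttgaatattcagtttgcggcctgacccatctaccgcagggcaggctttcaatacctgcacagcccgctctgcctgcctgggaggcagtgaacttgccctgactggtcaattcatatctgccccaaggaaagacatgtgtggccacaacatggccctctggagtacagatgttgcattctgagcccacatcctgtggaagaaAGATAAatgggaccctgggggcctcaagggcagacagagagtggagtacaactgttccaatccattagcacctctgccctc

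At least 1 GATA match was present in the windows of 7 of the 9 members, and in 8 of their 10 windows, against 29.8% of the 32851 windows in the table. The windows of Mcpt8 and Gzmb held none of these letters. Counted from the start site, the AGATAA matches began at -37 (opposite strand) and -11 in Ms4a2, -39 in Cd200r3, -46 in Cpa3 and -31 in Prss34. An AGATAA within the last 50 bases before the start was thus found in 4 of the 10 member windows and in 1.81% of all windows, a span that was picked after the matches had been seen. Ms4a2 held a further opposite-strand match at -224 and Fcer1a held its own at -92. In Cd200r3 the match at -39 ran directly into an AGATAG match at -33, without overlap. The RUNX motif TGTGGT, on either strand, lay in the windows of 4 members, Mcpt8, Gzmb, Cpa3 and Fcer1a, against 16.8% of all windows. These matches describe the letters in the windows and are not shown to be binding sites.

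All 9 genes gave signal above the limit used for dim genes, a log2 value of 5.07, on every array of both groups. None of them differed between diabetic and nondiabetic sorts by limma. The lowest adjusted p among them was 0.997, and 0 of the 9 passed an adjusted p of 0.05, where the background was 0.00751% of 13308 tested genes (1 gene, Rabggtb, which lay lower in diabetic cells). At an unadjusted p under 0.05 the count was also 0 of 9, beside 566 of all tested genes. The groups overlapped for every member, so that 0 of 9 were without overlap, while 7.95% of the tested genes had groups that did not overlap (5.28% with all diabetic arrays higher and 2.67% with all of them lower).

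Granule proteases came first by role. Mcpt8 stood at 11.03, 11.31 and 11.42 in diabetic replicates 1, 2 and 3 and at 11.08, 11.11 and 11.61 in nondiabetic replicates 1, 2 and 3 (log2 level). Both the highest and the second lowest of the 6 values were nondiabetic, and the means of 11.25 ± 0.20 and 11.27 ± 0.30 (SD, n = 3 each) differed by -0.013 (SE 0.20). That interval was the tightest of the 9, from -0.47 to 0.45 (95%, limma, not adjusted), or 0.721-fold to 1.36-fold.

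Prss34 stood at 11.13, 11.38 and 11.67 in the diabetic arrays and at 11.12, 10.96 and 11.78 in the nondiabetic arrays, in replicate order. Its diabetic values lay inside the nondiabetic range, with a difference of 0.11 (SE 0.25) and an interval of -0.47 to 0.68. Cpa3, the carboxypeptidase of basophil and mast cell granules, stood at 9.81, 10.36 and 10.38 against 10.30, 9.37 and 10.76. Here too the nondiabetic arrays held both extremes, and the difference was 0.038 (SE 0.34). Gzmb encodes granzyme B, a protease that cytotoxic lymphocytes carry too, and its values were 8.68, 9.32 and 8.48 in diabetic and 8.40, 7.81 and 9.22 in nondiabetic arrays. It was the member with the widest separation of means, 0.35 (SE 0.36), yet the interval ran from -0.49 to 1.19 and the groups overlapped. Gzmb was also the only member whose highest value was diabetic.

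The receptor genes also had their highest values in nondiabetic replicate 3. For Fcer1a the diabetic arrays read 8.05, 8.47 and 8.63 and the nondiabetic arrays 8.31, 7.38 and 9.02. All diabetic values fell between the nondiabetic extremes, with a difference of 0.14 (SE 0.38). Ms4a2 read 8.34, 8.60 and 8.76 in diabetic and 8.33, 8.49 and 9.31 in nondiabetic arrays. It was lower on average in the diabetic group, by -0.14 (SE 0.27), a sign set by nondiabetic replicate 3 alone, since without that array the difference was 0.16. Cd200r3, an activating receptor of basophils, read 7.09, 7.63 and 8.06 against 7.44, 6.64 and 8.34. Its nondiabetic values spanned 1.70 and its diabetic values 0.97 on the log2 scale, and the difference was 0.12 (SE 0.42).

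Among the mediators, Hdc encodes the enzyme that makes histamine from histidine. Hdc read 10.43, 10.69 and 10.49 in diabetic and 10.22, 9.96 and 10.83 in nondiabetic arrays. The diabetic arrays differed little from each other, with an SD of 0.13 against 0.45, and the difference between groups was 0.20 (SE 0.23; interval -0.34 to 0.74). Il4 read 6.35, 6.53 and 7.02 in diabetic and 6.20, 6.03 and 7.57 in nondiabetic arrays. It came closest to the dim limit, 0.96 above it at its lowest, and its difference was 0.034 (SE 0.40).

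**Figure D1:**
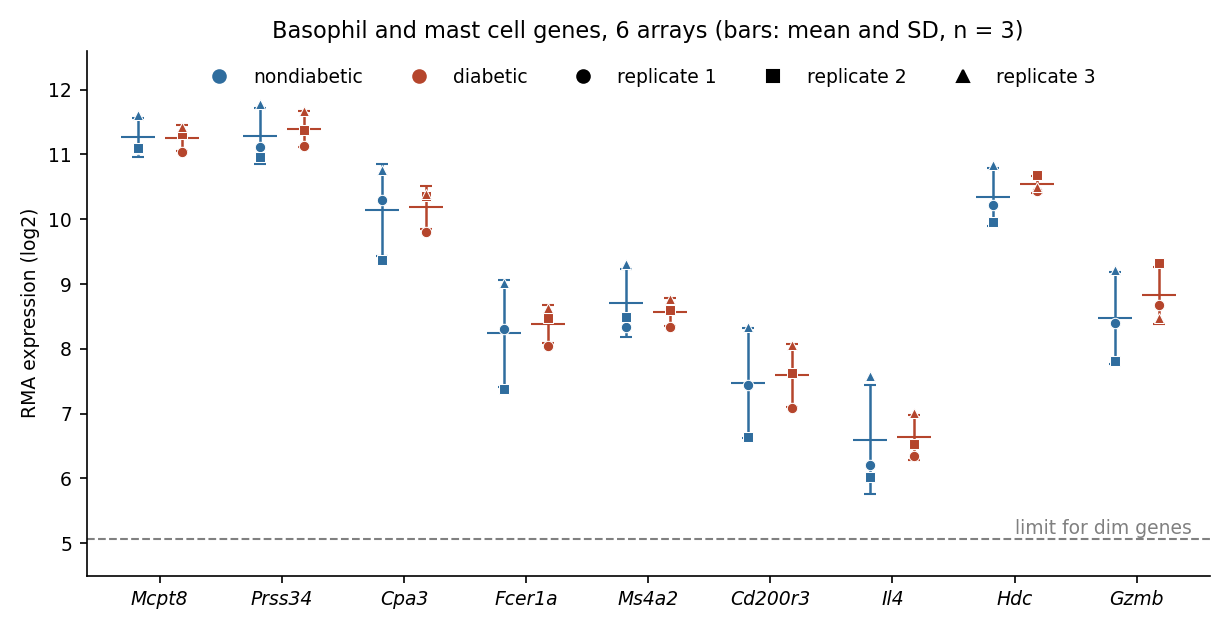
RMA log2 expression (vertical axis) of the 9 genes (horizontal axis) on each array, with blue for nondiabetic and red for diabetic sorts, symbols for the replicate, and bars for the mean and SD of 3 arrays. Every point lies above the dashed limit of 5.07, the groups overlap for all 9 genes, and the blue triangle of nondiabetic replicate 3 is the highest point for 8 of them.

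The intervals show what size of difference these arrays could have hidden. For 6 of the 9 members, Mcpt8, Prss34, Cpa3, Ms4a2, Il4 and Hdc, the 95% interval lay wholly within a log2 difference of 1 either way, while those of Fcer1a, Cd200r3 and Gzmb reached 1.02, 1.09 and 1.19. The median standard error of the members was 0.34, against 0.19 over all tested genes. Of the 9 differences 7 were above 0, with a median of 0.11, and 54.0% of all tested genes had differences above 0, with a median of 0.019. No direction is drawn from this, because the median of the members was -0.25 without nondiabetic replicate 2 and 0.45 without nondiabetic replicate 3.

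**Figure D2:**
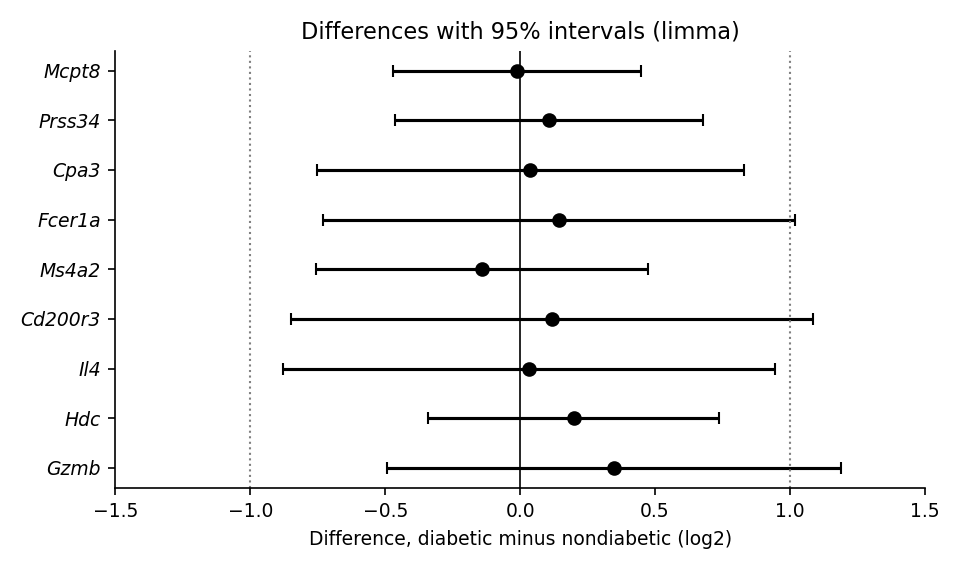
Difference between diabetic and nondiabetic means for each gene (horizontal axis, log2), with 95% intervals from limma, and dotted lines at a log2 difference of 1 either way. All 9 intervals include 0, and those of Fcer1a, Cd200r3 and Gzmb cross the right dotted line.

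What the members shared was their order over single arrays. Nondiabetic replicate 3 held the highest of the 6 values for 8 of the 9 genes, and nondiabetic replicate 2 held the lowest for 7. Both were true at once for 6 members, and for 2.75% of all tested genes, but this pair of arrays was picked because the members were extreme there. With each gene set to its own mean over 6 arrays, the member mean was 0.61 in nondiabetic replicate 3 and -0.58 in nondiabetic replicate 2, while nondiabetic replicate 1 stood at -0.17. The diabetic arrays lay between these extremes, at -0.23, 0.15 and 0.22 for replicates 1, 2 and 3. So the arrays of the control group stood farther from each other than the group means did. Accordingly the SD was larger in the nondiabetic than in the diabetic group for 9 of 9 members, against 45.0% of the tested genes. This count rests largely on the same pair of arrays and is not a separate result.

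Likeness to this profile was measured as the root mean square distance, over the 6 arrays, between a gene's centred log2 values and the member mean, for all 13299 other tested genes. Gata2, a zinc finger transcription factor, was the nearest of all, at a distance of 0.054. It read 8.28, 8.59 and 8.70 in diabetic and 8.38, 8.03 and 9.14 in nondiabetic arrays, a difference between groups of 0.0083 (SE 0.28). Gata2 had the members' order at the extremes, with nondiabetic replicate 3 highest and nondiabetic replicate 2 lowest. Alox5ap, the protein that presents arachidonic acid to 5-lipoxygenase in leukotriene synthesis, came second at 0.088, and the chemokine receptor gene Ccr1 next at 0.089. They were followed by Aldh2, a mitochondrial aldehyde dehydrogenase, at 0.11, the leukocyte adaptor gene Fyb at 0.12 and B430306N03Rik at 0.14. Gata2 remained the nearest gene with any single array left out except nondiabetic replicate 3, without which it ranked 5. With so many genes and 6 arrays some near profiles are bound to occur, and these distances carry no test. Among the members themselves, the distance of each gene to the mean of the other 8 ranged from 0.14 for Prss34 to 0.35 for Gzmb.

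**Figure D3:**
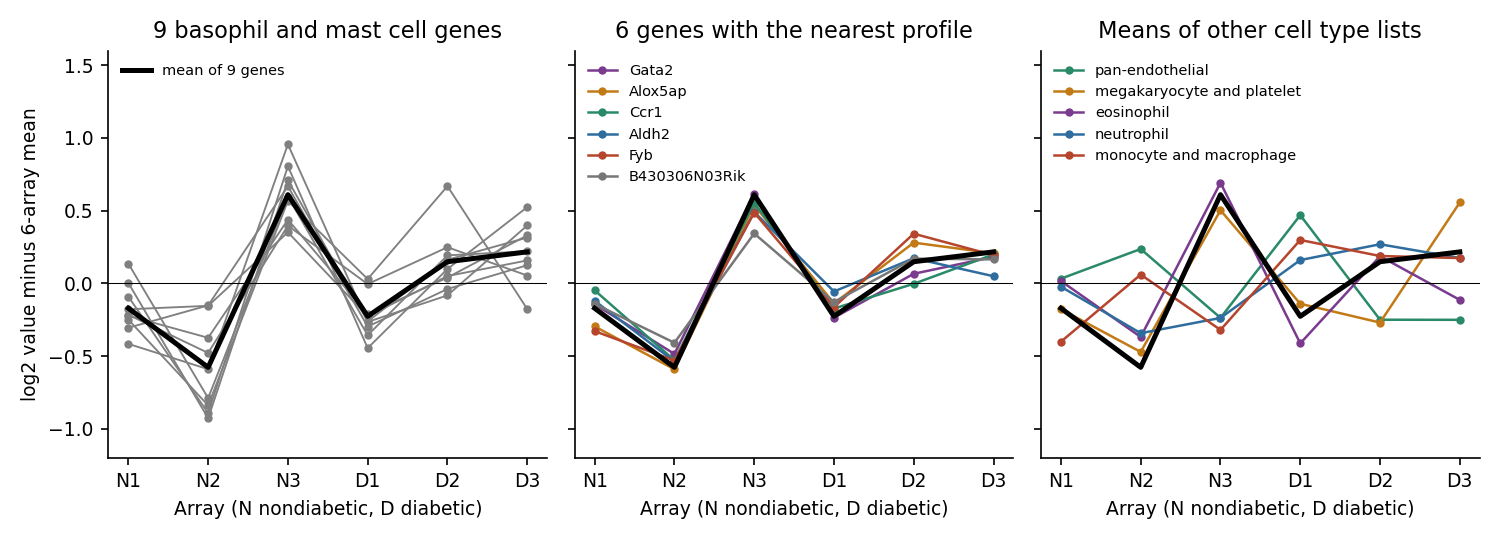
Centred log2 values (vertical axis, value minus the gene's mean over 6 arrays) on nondiabetic (N) and diabetic (D) arrays for the 9 genes (left), the 6 nearest other genes (middle) and the mean of tested genes in lists of other cells (right), with the mean of the 9 genes as a black line in each panel; lines join arrays for legibility and the arrays have no order. The black line peaks at 0.61 in N3 and is lowest at -0.58 in N2, and the endothelial mean has its peak of 0.47 in D1.

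Other cell markers moved over the arrays as well, and their part in the members' values was not tested. The mean of 13 general endothelial genes was highest in diabetic replicate 1, at 0.47, and in nondiabetic replicate 2, at 0.24, which were the arrays with the lowest member means. It was -0.24 in nondiabetic replicate 3 and -0.25 in both other diabetic arrays, where the member means were above 0. Diabetic replicate 1 was high for genes in general, with 65.1% of all tested genes above their own mean there. The mean over the tested genes other than the members was 0.11 on that array. Cdh5, the VE-cadherin of endothelial junctions, stood at 10.88 ± 0.43 in diabetic and 10.98 ± 0.22 in nondiabetic sorts (SD, n = 3 each), and all 13 of these endothelial genes lay above the dim limit. Megakaryocyte and platelet genes, of which 5 were tested, were also high in nondiabetic replicate 3 (0.50) and low in nondiabetic replicate 2 (-0.47), but they were high in diabetic replicate 3 (0.56) and low in diabetic replicate 2 (-0.27). Ppbp, the platelet chemokine, had a distance of 0.23 to the member mean, rank 128 of the other genes.

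The members' signal was not matched by genes that define mature mast cells. Of 11 mast cell genes 10 were dim: the chymases Cma1, Mcpt1, Mcpt2, Mcpt4 and Mcpt9, the tryptases Tpsab1 and Tpsb2, the receptors Mrgprb1 and Mrgprb2, and Tph1, which makes serotonin. Their 6-array means lay between 2.92 for Mcpt9 and 4.37 for Tpsab1. Kit, the stem cell factor receptor that progenitors share, was the exception at 7.40 ± 0.36 in diabetic and 7.25 ± 0.53 in nondiabetic sorts. Kit ran against the members on the extreme control array, with its lowest value, 6.64, in nondiabetic replicate 3.

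Mcpt8 and Gzmb lie in the same gene segment of mouse chromosome 14, which holds 15 protein-coding genes from Cma1 to Gzmb in the RefSeq table. This segment was looked at after the members' values had been seen. Of 14 genes there with a probe set of their own, Mcpt8, Ctsg, Gzmc and Gzmb were above the dim limit on all 6 arrays. A further 9 were under it on all 6, and Cma2 was above it on 3. Mcpt8 thus had signal between Mcpt4, with values of 3.53 to 4.14, and Ctsg, the neutrophil protease cathepsin G, with values of 10.05 to 10.54. Gzmc had a 6-array mean of 8.71. Granzymes of this segment are alike in sequence, so whether the Gzmb and Gzmc probe sets read both transcripts cannot be told apart here.

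**Figure D4:**
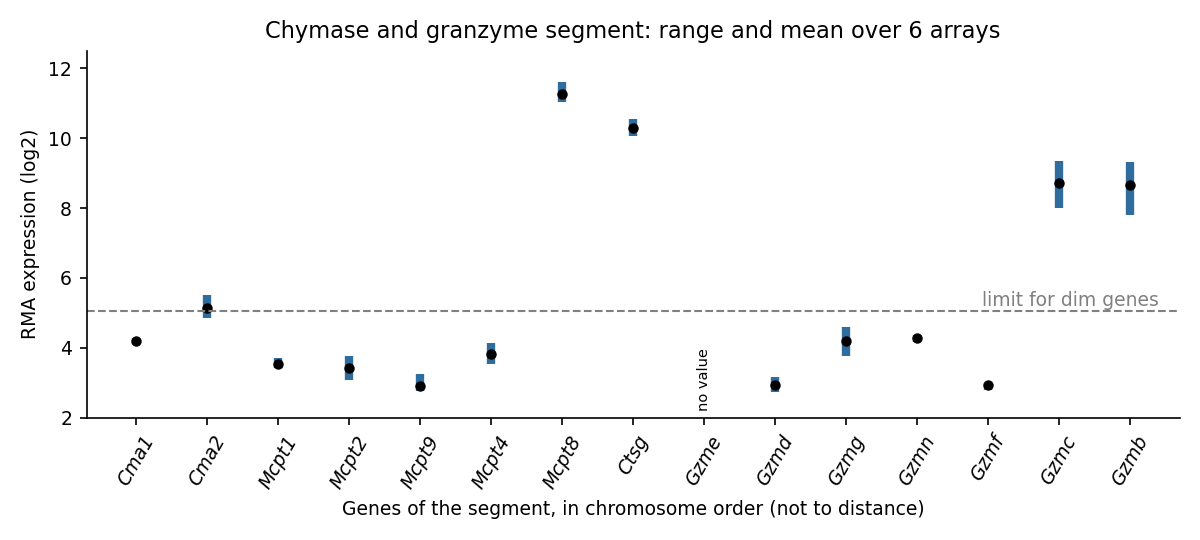
RMA log2 expression (vertical axis) of the genes from Cma1 to Gzmb in their order along the chromosome (horizontal axis, not to distance); blue bars span the lowest to the highest of 6 arrays, dots mark the mean, and Gzme had no probe set of its own. Mcpt8, Ctsg, Gzmc and Gzmb lie above the dashed limit of 5.07 on every array.

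Gzmb, Il4 and Hdc are also made by other leukocytes, whose markers were read beside them. Of 14 NK and cytotoxic T cell genes 8 were dim by their means, among them Gzma, Klrd1, Klrk1, Cd3e and Cd8a. Klrk1 and Cd8a still reached 6.28 and 5.52 in diabetic replicate 2. Prf1, the pore-forming partner of granzymes, had a mean of 5.49, and the NK receptor gene Ncr1 a mean of 6.32. The centred mean of the tested genes was highest in diabetic replicate 2, at 0.27, where Gzmb had its peak of 9.32. A link between them was not tested. Of the 6 tested genes of that list 2 were higher and 4 lower in diabetic sorts, with a median of -0.11. Nkg7, a granule protein of cytotoxic cells, stood at 8.15 ± 0.36 in diabetic and 8.26 ± 0.51 in nondiabetic sorts. Ctsw, a cathepsin of NK and cytotoxic T cells, had the smallest p of the list and read 6.09, 5.91 and 6.10 in diabetic against 5.11, 5.26 and 5.11 in nondiabetic arrays. Its nondiabetic values lay close to the dim limit of 5.07. All its diabetic values were the higher ones, as was so for 5.28% of the tested genes. The Ctsw difference of 0.88 (SE 0.15) did not pass the limma test (adjusted p = 0.964).

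Plasmacytoid dendritic cells can carry Gzmb, and 7 of their 8 measured genes were tested, 4 with higher and 3 with lower diabetic means and a median difference of 0.15. Their lectin Siglech had a mean of 5.39 and the surface protein gene Bst2 a mean of 8.06. Tcf4, a transcription factor that endothelial cells express too, stood at 9.34 ± 0.23 in diabetic and 9.42 ± 0.26 in nondiabetic sorts. Ly6d, which lymphoid progenitors share, read 8.83, 7.72 and 8.81 against 7.45, 7.35 and 7.48. All its diabetic values were the higher ones, with a difference of 1.03 (SE 0.29) that did not pass the limma test (adjusted p = 0.997) and was 0.61 with array weights.

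For Il4, 7 of 8 genes of T helper 2 and innate lymphoid cells were tested, 4 higher and 3 lower, with a median of 0.073. Of the tested genes of this list 2, Il13 and Gata3, were without overlap, both higher in diabetic arrays (28.6%, against 5.28% of tested genes on that side). Il13 is also counted among the basophil mediators below. The T helper marker Cd4 and the receptor gene Klrg1 lay close to the dim limit, with means of 5.12 and 5.11, and Il5 was dim at 4.60. The other genes of the list were brighter, with means of 8.09 for the interleukin 2 receptor gene Il2ra, 7.91 for Il13, 7.55 for Il17rb, 7.02 for Gata3 and 6.79 for Rora. Il2ra differed by -0.22 (SE 0.17).

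Among 10 tested neutrophil genes all 10 differences were above 0, with a median of 0.32, against 54.0% of all tested genes. The 6 dim genes of that list mostly went the other way. Camp, Ltf, Retnlg, Mmp8 and Fcnb differed by -0.36, -0.12, -0.53, -0.050 and -0.17, and Ly6g by 0.084, all without a test. Among 9 tested monocyte and macrophage genes all 9 differences were above 0, with a median of 0.43. Of these 9 genes 3 were without overlap (33.3%, against 5.28% of tested genes without overlap on the higher side). None of the genes in these lists passed the adjusted limma test. An unadjusted p under 0.05 (limma) was found for 2 of the 10 neutrophil genes, S100a9 and Lcn2. The same held for 2 of the 9 monocyte and macrophage genes, Ccr2 and Ms4a6c, and for 566 of all 13308 tested genes. The part of all these cells in the levels of Gzmb, Il4 and Hdc was not tested. Ms4a6c and S100a9 differed by 0.68 (SE 0.19) and 0.58 (SE 0.23), the former without overlap. The brightest genes of the monocyte and neutrophil lists, Ly6c2 and the myeloperoxidase gene Mpo, differed by 0.33 (SE 0.25) and 0.26 (SE 0.18).

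In further lists of other marrow cells no gene passed the adjusted limma test. Among 7 tested B and plasma cell genes 5 were higher and 2 lower, with a median of 0.46. Of these genes 2, Cd79a and Dntt, were without overlap, both higher in diabetic arrays (28.6%, against 5.28% of tested genes on that side). Their nondiabetic means, 4.93 and 4.82, lay under the dim limit of 5.07, so both were tested only through their diabetic values. Cd79a read 7.15 in diabetic replicate 1 but 5.15 and 5.32 in diabetic replicates 2 and 3. Dntt, the terminal transferase of early lymphocytes, differed by 0.90 (SE 0.25) without overlap, and the antibody joining chain gene Jchain by 0.23 (SE 0.31). Of the stem and progenitor genes, Myb, a factor of blood progenitors, was higher on every diabetic array by a mean of 0.44 (SE 0.16), and Cd34 differed by -0.13 (SE 0.22). Of the erythroid genes, Hemgn was lower on every diabetic array, with a difference of -0.80 (SE 0.20), and the carbonic anhydrase gene Car1 differed by -0.085 (SE 0.29). The platelet glycoprotein gene Gp9 differed by 0.29 (SE 0.42), Ppbp by 0.066 (SE 0.31) and the endothelial receptor gene Flt4 by 0.51 (SE 0.27), each with overlap.

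Eosinophil genes, of the sister granulocyte lineage, shared the peak in nondiabetic replicate 3 on average, though Siglecf had its lowest value there. The mean of 6 tested genes was 0.69 there, -0.37 in nondiabetic replicate 2 and -0.41 in diabetic replicate 1. Of these 6 genes 3 were higher and 3 lower in diabetic sorts, with a median difference of -0.12. Prg2, the major basic protein of eosinophil granules, stood at 10.71 ± 0.38 in diabetic and 11.00 ± 0.18 in nondiabetic sorts. Epx, the eosinophil peroxidase, read 6.62, 7.69 and 6.87 against 7.74, 7.50 and 8.64, a difference of -0.90 (SE 0.36; adjusted p = 0.997, limma) with overlap. The Epx difference was -0.56 without nondiabetic replicate 3 and -0.48 with array weights. Siglecf, a lectin of eosinophils, was higher on every diabetic array, as 5.28% of the tested genes were, by a mean of 0.32 (SE 0.18). Its nondiabetic values of 5.32, 5.14 and 5.12 lay close to the dim limit of 5.07, and its lowest diabetic value was 5.33. The lipoxygenase gene Alox15 differed by 0.31 (SE 0.51). Ccr3 and Il5ra, receptors that define eosinophils, were dim by their means of 3.22 and 4.88. Il5ra still reached 5.24 in nondiabetic replicate 3.

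The wider pathway was read from lists of basophil and mast cell genes, in which 0 of 63 tested genes passed the adjusted limma test. An unadjusted p under 0.05 (limma) was found for 4 of the 63, all of them mediators, beside 566 of all 13308 tested genes. No result about the lists is drawn from that count. Of 14 granule protease and granule matrix genes 6 were tested, 4 with higher and 2 with lower diabetic means, and the median difference was 0.072. The non-members among them were Ctsg, with a difference of 0.13 (SE 0.16), and Srgn, the proteoglycan core that packs granule proteases, with -0.057 (SE 0.15). Of 15 tested genes of the IgE receptor and its signaling 8 were higher and 7 lower, with a median of 0.027. Fcer1g, the signaling gamma chain that other Fc receptors share, read 9.88, 10.28 and 10.40 in diabetic and 9.73, 9.64 and 10.18 in nondiabetic arrays. Its groups overlapped, with a difference of 0.34 (SE 0.21). Inpp5d, the phosphatase SHIP1 that dampens receptor signaling, was the gene of this list without overlap, all diabetic arrays being higher, and differed by 0.35 (SE 0.17), or 0.18 with array weights. Lcp2, the adaptor SLP-76, differed by 0.23 (SE 0.19), or 0.087 without nondiabetic replicate 2 and 0.15 without diabetic replicate 2.

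Of 16 tested surface receptors 10 were higher and 6 lower, with a median of 0.047 and no gene without overlap. Cd69, an activation marker of leukocytes, stood at 8.53 ± 0.40 in diabetic and 8.99 ± 0.41 in nondiabetic sorts. Its difference of -0.46 was -0.23 without nondiabetic replicate 3, -0.26 without diabetic replicate 3 and -0.19 with array weights. The low affinity Fc receptor gene Fcgr3 differed by -0.23 (SE 0.16), and Cd63, a granule membrane protein exposed when basophils degranulate, by 0.046 (SE 0.17). Of 14 tested mediator genes 10 were higher and 4 lower, with a median of 0.21. None of these medians kept its sign with every single array left out: the range was -0.033 to 0.48 for the mediators, -0.10 to 0.16 for the IgE receptor list, -0.11 to 0.14 for the surface receptors and -0.050 to 0.27 for the granule proteases. Each upper end was the value without nondiabetic replicate 3.

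Il13, the gene of a cytokine that activated basophils make along with interleukin 4, had the smallest p of the mediators. It read 8.24, 8.69 and 8.07 in diabetic and 7.57, 7.03 and 7.84 in nondiabetic arrays. Every diabetic value lay above every nondiabetic value, which was so for 5.28% of the tested genes, and the difference of 0.86 (SE 0.25) did not pass the limma test (adjusted p = 0.997). With single arrays left out it ranged from 0.63 to 1.03. Il13 had its lowest value in nondiabetic replicate 2, as Il4 and most members did, and its highest control value in nondiabetic replicate 3. Unlike Il4, it had its peak over all arrays in diabetic replicate 2, and its distance to the member mean was 0.47. The other mediators with an unadjusted p under 0.05 were Ltc4s, leukotriene C4 synthase, with 0.57 (SE 0.24), the prostaglandin synthase gene Ptgs2 with 0.59 (SE 0.26) and the cytokine gene Tnf with -0.96 (SE 0.41); the latter pair was named after its values were seen, and the groups overlapped for each. Ltc4s differed by 0.33 without diabetic replicate 3, Ptgs2 by 0.33 without nondiabetic replicate 2 and Tnf by -0.59 without nondiabetic replicate 3. The chemokine genes Ccl3 and Ccl4 differed by -0.031 (SE 0.19) and -0.074 (SE 0.20).

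Of 12 transcription factor genes of the lineage 9 were higher and 3 lower, with a median of 0.088 (0.017 to 0.20 with single arrays left out). Besides Gata2, the rule for naming gave Runx1, a factor of blood cell development, at 8.22 ± 0.38 against 7.93 ± 0.41. Irf8, a factor of myeloid progenitors, stood at 8.67 ± 0.44 against 8.32 ± 0.24, and Bhlhe40 at 8.57 ± 0.89 against 8.48 ± 0.17 in diabetic and nondiabetic sorts (SD, n = 3 each). The Irf8 difference of 0.35 came to 0.12 when diabetic replicate 1 was left out and to 0.21 when nondiabetic replicate 3 was. For Runx1 the difference of 0.29 came to 0.093 in the absence of diabetic replicate 3 and to 0.12 in that of nondiabetic replicate 2. Runx1 had its lowest value in nondiabetic replicate 2, as the members did, and a distance of 0.19 to their mean, whereas Irf8 and Bhlhe40 were far from it at 0.63 each.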

How the data were processed

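The values the authors deposited are on a log2 scale and come from RMA, an array normalization, as named in the submitters' processing notes; its version is not given in the sources used here. RMA brings arrays toward a common distribution, so a value is relative to the other values of its array and shows no absolute amount. Array medians lay between 5.21 and 5.28, and the number of arrays limits the precision.

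Gene names came from GEO's platform annotation, which may lag behind current symbols: of 41345 probe sets, 23521 named 1 gene, 1814 several and 16010 none here. Each gene took its brightest probe set by the mean over 6 arrays. Genes with means under the 40th percentile (5.07) were left out as dim, leaving 13308. The test was limma 3.58.1 under R 4.3.3 (lmFit, eBayes, no covariates), with Benjamini-Hochberg adjustment over all tested genes, and it was tested on simulated data. List means used centred values of tested genes.

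The members and lists were chosen with earlier results of these data known. Named genes were the members, the 2 smallest p and 2 highest means per wider list, the smallest p and highest mean per list of other cells, and the 6 nearest profiles; others are pointed out or stand for their list. Same-numbered arrays of the groups had deviations correlated at -0.036, -0.064 and 0.016 across genes. Such low correlations show no pairing, but they cannot exclude that arrays of the same number shared a batch. Alternatives were other dim filters, the mean of probe sets, quantile normalization again, median centring, other variance models, array weights, each array left out in turn, and the replicate number as a block.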

Additional observations from a re-analysis of the deposited data

How the results depend on the processing

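Under the 14 alternatives 0 of the 9 members passed the adjusted limma test (lowest adjusted p = 0.615), and the same holds for the 40 other named genes of the lists (lowest adjusted p = 0.396). The only gene called over all genes, Rabggtb, fell under a stricter dim limit, the 60th percentile, and 0 genes were then called. Signs were unstable, and 7 of 9 members changed sign somewhere. Mcpt8 differed by 0.056 with array weights and Cpa3 by -0.023 with quantile normalization. Leaving out each array in turn gave ranges of -0.10 to 0.16 for Mcpt8, -0.055 to 0.35 for Prss34, -0.35 to 0.35 for Cpa3, -0.28 to 0.53 for Fcer1a, -0.33 to 0.16 for Ms4a2, -0.30 to 0.55 for Cd200r3 and -0.25 to 0.52 for Il4, with the lower ends mostly without nondiabetic replicate 2 and the upper ends without nondiabetic replicate 3. Hdc and Gzmb stayed above 0, at 0.0089 to 0.45 and 0.015 to 0.72. Quantile normalization gave -0.0047 for Cd63 and -0.026 for Gata2, and array weights gave 0.14 for Ccl3 and 0.10 for Ccl4. With single arrays left out the ranges were -0.072 to 0.16 for Cd63, -0.17 to 0.093 for Ccl3, -0.20 to 0.085 for Ccl4, -0.30 to 0.58 for Bhlhe40 and -0.23 to 0.32 for Gata2. Among markers of other cells, array weights gave -0.088 for Jchain, -0.012 for Ppbp and 0.16 for Nkg7, and quantile normalization -0.0080 for Ppbp. Their ranges with single arrays left out were -0.32 to 0.18 for Nkg7, -0.23 to 0.020 for Tcf4, -0.13 to 0.81 for Gp9, -0.22 to 0.32 for Ppbp, -0.15 to 0.32 for Kit, -0.33 to 0.0046 for Cd34, -0.28 to 0.17 for Car1 and -0.34 to 0.046 for Cdh5. The median of the granule protease list was 0.17 with array weights and -0.050 to 0.27 with single arrays left out; the cause was not tested. Gata2 remained the nearest gene, rank 1, under alternatives added after seeing the data (quantile normalization, median centring, no dim filter, Gzmb left out of the mean, single arrays left out), except without nondiabetic replicate 3, where it ranked 5. With the replicate number as a block, 0 members were called. In this balanced design a block cannot change the differences, only their standard errors. These fell for most members, as from 0.40 to 0.24 for Il4. They rose for Hdc, from 0.234 to 0.238, and for Gzmb, from 0.36 to 0.39. Each member had 1 probe set, so further probe sets gave no value.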
